A study of Saccharomyces cerevisiae with 16 samples.

Results

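Autophagy and vacuolar degradation were followed through 35 yeast genes, out of 6002 annotated protein-coding genes counted in the series. The genes were taken as a named list: 31 ATG genes, which make and target the autophagosome or act on what it delivers, and 4 genes of the vacuole's proteases and their control (PEP4, PRB1, PRC1 and PAI3). All 35 were found in the annotation. The measurement was 3′T-fill, which reads the end of a polyadenylated transcript, so that a tag marks 1 transcript end and a gene's count does not grow with its length.

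All libraries came from BY4741, a haploid laboratory line of Saccharomyces cerevisiae (Mat a) that lacks functional HIS3, LEU2, URA3 and MET15, grown in YPD (rich medium with glucose) at 30 °C. Single cells were sealed in alginate particles and divided there into microcolonies. The 6 groups were small colonies (4 libraries, of which replicates 2 and 4 were used) and big colonies (3 libraries), both fixed in ethanol and sorted by particle size, fixed unsorted particles (3 libraries), unsorted particles that were not fixed (2 libraries), and batch cultures without particles at an absorbance (Abs600) of 2 and of 0.5 (2 libraries each). Beyond the strain's own loss of HIS3, LEU2, URA3 and MET15, no gene was deleted or induced in any group. No treatment other than encapsulation, fixation and sorting was given.

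In autophagy a membrane sheet grows around cytoplasm or a chosen cargo, closes into an autophagosome and fuses with the vacuole, where proteases, a lipase and permeases return the contents as building blocks. The Atg1 kinase complex starts the process, Atg9 vesicles and a phosphatidylinositol 3-kinase supply and mark the membrane, and a ubiquitin-like system couples Atg8 to its lipid. In yeast the pathway is strongly induced by starvation, while in rich medium a selective branch carries aminopeptidase I to the vacuole through the receptor Atg19.

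The 14 libraries held 1506960 to 7871184 tags, of which 88.8% to 96.3% fell in protein-coding genes. Levels below are CPM, tags per 1000000 gene tags scaled by TMM over these 14 libraries. The 2 libraries of small colonies correlated with each other at 0.529 (Pearson, log2 CPM, across genes), while within the other groups replicates correlated at 0.867 to 0.945, so small colonies stayed out of the fit used for the other comparisons. Small replicate 4 also carries a sample type label that reads as unfixed, against its title, and the submitters excluded small replicates 1 and 3 for low quality. Of tags near 700 isolated genes, 90.5% and 91.3% lay on the transcript strand in unfixed particles, against 95% and 94.6% in batch culture at Abs600 0.5, and 92.3% to 94.9% did in fixed unsorted particles. The Mat a label was checked against marker genes. Over the 6 group means, the a-cell genes MFA1 and STE2 averaged 96.4 to 546 and 210 to 511 CPM. STE6, BAR1 and AGA2, also a-cell genes, averaged 19.6 to 106, 29.7 to 75.9 and 30.9 to 187 CPM. The alpha-cell genes MF(ALPHA)1, MF(ALPHA)2 and STE3 stayed between 0 and 6.8 CPM, which matched the label. MFA2, the other a-factor gene, averaged 5.18 CPM in unfixed particles and 46 to 504 CPM in the other groups. The alpha-cell gene SAG1 averaged 50.1 CPM in small colonies, above the 30.9 CPM of AGA2 there, and 0.45 to 10.6 CPM in the other groups. Means of the meiosis genes IME1, IME2, SPS4, SPO11 and NDT80 lay between 0 and 23.6 CPM.

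Together the 35 genes took 1570 and 1804 of each 1000000 gene tags in the small-colony libraries, 823 to 1206 in big colonies, 621 to 1534 in fixed unsorted particles, 3507 and 3962 in unfixed particles, 2293 and 2333 in batch culture at Abs600 2, and 1081 and 1054 at Abs600 0.5. The protease genes PEP4 and PRC1 had the most tags of the 35, 11181 and 24494 over the 14 libraries. The ATG genes alone took 988 and 1072 per 1000000 in unfixed particles, against 516 and 420 in batch culture at Abs600 0.5. Most ATG genes were therefore read from few tags. ATG15 (29 tags in all), ATG29 (23), ATG10 (100) and ATG34 (108) had the fewest, and 19 of the 35 genes had no tag in at least 1 library. Of these, 10 were at 0 only in small replicate 2, which had tags on 4403 genes, against 5411 to 5658 in the 13 other libraries used, and 9 were at 0 in another library. The filter on low counts left 30 of the 35 genes for testing. The 5 others were ATG3, ATG15, ATG16, ATG29 and ATG32, which were not tested in that fit; ATG16 and ATG32 were tested between small and big colonies.

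**Figure D1:**
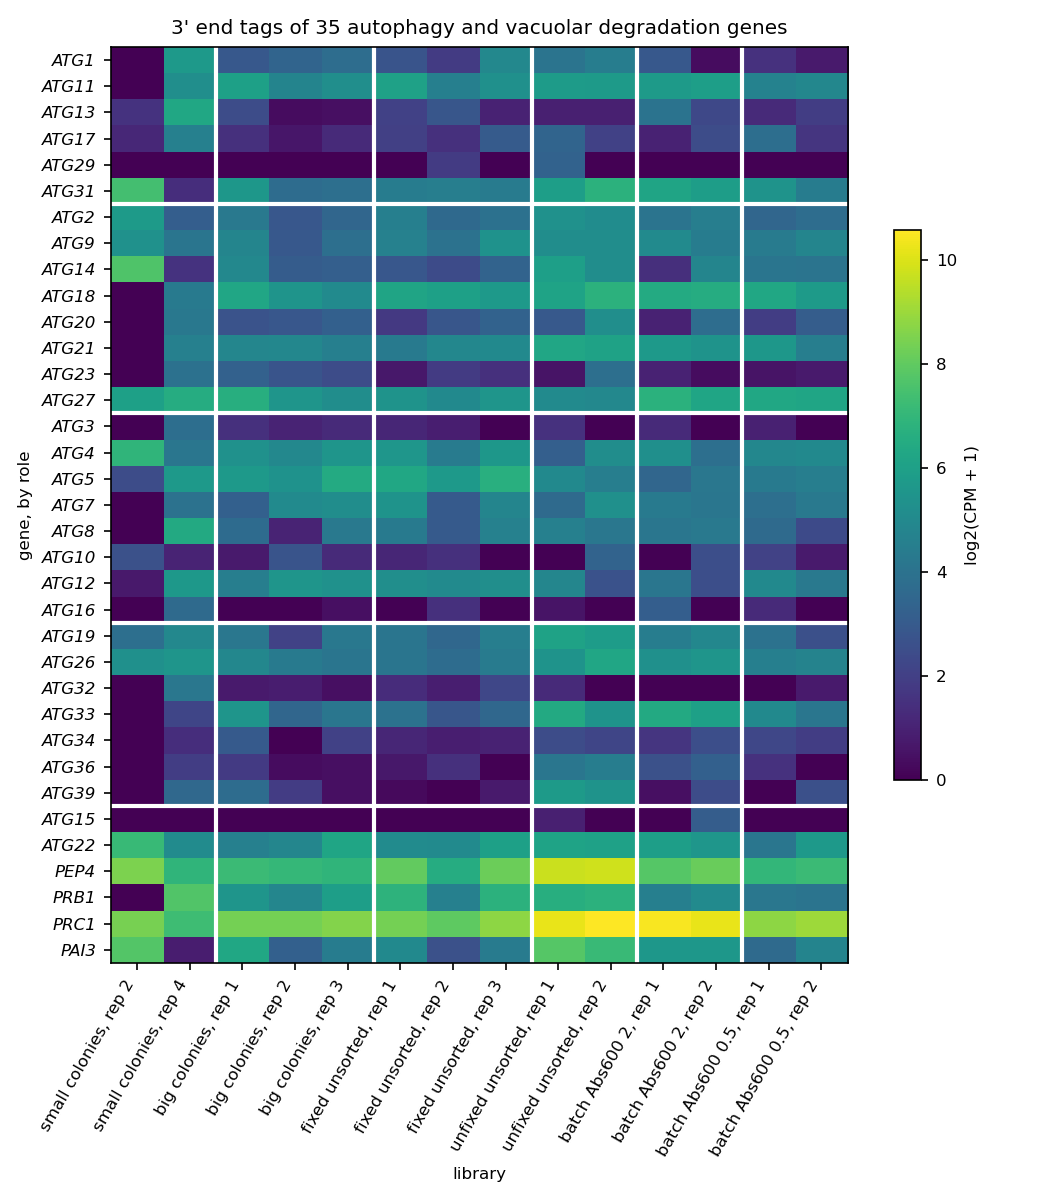
Level of each of the 35 genes (rows, by role from the Atg1 complex at the top to the vacuolar proteases at the bottom) in each of the 14 libraries (columns, by group), as log2(CPM + 1) in colour. PEP4 and PRC1 are the brightest rows, and the unfixed particles are the brightest columns for PEP4 and ATG19.

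Unfixed microcolonies were set against batch culture at Abs600 0.5. Growth inside particles, encapsulation and the handling of particles all differ here and cannot be told apart. The genes that passed the test belonged to breakdown in the vacuole, besides a cargo receptor. PEP4, PRB1, PRC1, PAI3 and ATG19 were called higher than in batch culture, and 0 of the 30 genes tested were called lower. At an unadjusted p under 0.05 there were 13 of the 30 genes and 1566 of all genes. Among all 5448 genes tested, 5.38% were higher and 7.05% lower, 12.4% in either direction (quasi-likelihood test of edgeR, threshold 0.05 after Benjamini-Hochberg adjustment). The median log2 fold change of the 30 genes was 1.31, against -0.02 over all genes, and 25 of the 30 had a positive value. By role, 4 of 5 tested genes of breakdown in the vacuole were higher, with the inhibitor gene PAI3 among them. Of the selective receptors and related genes, 1 of 6 was higher. None of the 5 tested genes of the Atg1 kinase complex, the 8 of membrane source and lipid transfer, or the 6 of the conjugation systems passed the test. In these bulk samples, a change in all cells and a change in the share of cells that express a gene cannot be told apart. The lower transcript strand share of the unfixed libraries moves with this comparison, and its part in the result was not tested.

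PEP4 (YPL154C, chromosome XVI, 259714 to 260931, minus strand) encodes proteinase A, the aspartyl protease that matures the other vacuolar hydrolases. Its level was 838 and 881 CPM in unfixed particles, against 126 and 145 CPM in batch culture at Abs600 0.5. The groups did not overlap, and the log2 fold change was 2.66 (SE 0.46, adjusted p = 0.00177). The serine protease gene PRB1 (YEL060C, chromosome V, 40046 to 41953, minus strand), encoding proteinase B, had 98.6 and 108 CPM in unfixed particles, against 17.4 and 15.5 CPM in batch culture. It was higher by a log2 fold change of 2.65 (SE 0.64, adjusted p = 0.0154), again without overlap. The share of all genes without overlap was not counted.

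PRC1 (YMR297W, chromosome XIII, 861922 to 863520, plus strand), which encodes carboxypeptidase Y, had 1178 and 1513 CPM in unfixed particles, against 435 and 519 CPM in batch culture at Abs600 0.5. Its log2 fold change of 1.50 (SE 0.36, adjusted p = 0.0144) was the smallest of the 5. PAI3 (YMR174C, chromosome XIII, 610159 to 610365, minus strand) encodes a cytosolic inhibitor of proteinase A. It had 216 and 143 CPM in unfixed particles and 11.7 and 26 CPM in batch culture, a log2 fold change of 3.26 (SE 0.91, adjusted p = 0.0301). A protease and the inhibitor of that protease were thus both higher in the same libraries. ATG19 (YOL082W, chromosome XV, 168727 to 169974, plus strand), the receptor for aminopeptidase I, had 67.7 and 55.8 CPM in unfixed particles, against 15 and 4.92 CPM in batch culture, a log2 fold change of 2.60 (SE 0.78, adjusted p = 0.0406).

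The core of the pathway did not pass the test here. ATG8, whose lipid-bound product coats the autophagosome and whose transcript is a usual marker of induction, had 23.2 and 17.4 CPM in unfixed particles, against 11.7 and 4.22 CPM in batch culture at Abs600 0.5. ATG1, the kinase that starts the process, had 15.9 and 21.4 CPM in unfixed particles and 1.88 and 0.703 CPM in batch culture. For both genes the libraries of the groups did not overlap, but the adjusted p missed the threshold. How many of all genes were so separated in this comparison was not counted, so the lack of overlap is no support. ATG36, the peroxisome receptor, had 16.8 and 21 CPM in unfixed particles, against 1.88 and 0 CPM in batch culture, and ATG39, the receptor for the nuclear envelope, had 52.7 and 42 CPM, against 0 and 4.92 CPM. By edgeR, ATG39, ATG36 and ATG1 had log2 fold changes of 4.36, 4.13 and 3.74, larger than those of the 5 called genes. Their adjusted p values were 0.0731, 0.0783 and 0.0794. ATG23 had 3.50 (adjusted p = 0.163), so missing the threshold does not mean no change. DESeq2 called ATG1, ATG36 and ATG39 besides the 5, for 8 of the 30, and 994 of all 5448 genes, against 677 of all genes by edgeR.

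Of the 5 calls, that of PEP4 held without any single library and with all 14 libraries in the fit. Without batch replicate 1 or batch replicate 2 it was the 1 gene left, without unfixed replicate 1 PEP4, PRB1 and PRC1 were called, and without unfixed replicate 2 PEP4 and PRB1 were.

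**Figure D2:**
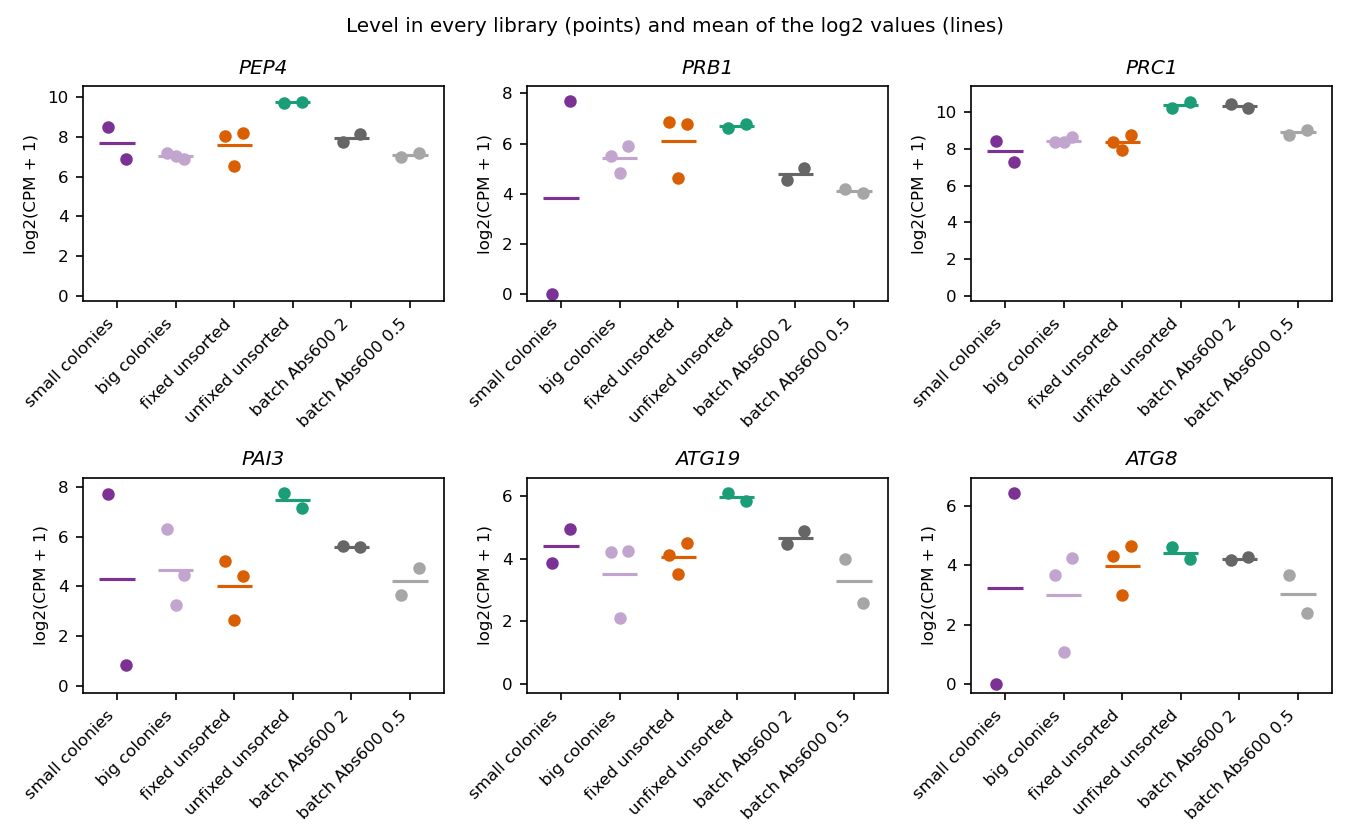
Level of PEP4, PRB1, PRC1, PAI3, ATG19 and ATG8 in every library (points, log2(CPM + 1)) by group, with the mean of the log2 values as a line. In unfixed particles PEP4 sat at 838 and 881 CPM, above the 12 other libraries, while PRC1 was as high in batch culture at Abs600 2 as in unfixed particles.

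The upstream sequences of PRC1 and PAI3 are shown because these genes passed the test in more than 1 comparison. Each is the window from 300 to 51 nt before the ORF in the R64 build, read on the gene's strand, with capitals for the stress response element AGGGG, which the factors Msn2 and Msn4 bind, and for GATAAG, which GATA factors of nitrogen control bind, on either strand (CCCCT and CTTATC). The windows are chrXIII:861622-861871 on the plus strand for PRC1 and chrXIII:610416-610665 on the minus strand for PAI3.
PRC1: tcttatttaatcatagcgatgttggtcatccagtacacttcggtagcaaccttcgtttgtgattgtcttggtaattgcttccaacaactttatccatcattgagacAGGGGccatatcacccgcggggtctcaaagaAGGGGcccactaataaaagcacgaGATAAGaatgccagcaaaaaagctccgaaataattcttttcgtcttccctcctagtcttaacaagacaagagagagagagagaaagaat
PAI3: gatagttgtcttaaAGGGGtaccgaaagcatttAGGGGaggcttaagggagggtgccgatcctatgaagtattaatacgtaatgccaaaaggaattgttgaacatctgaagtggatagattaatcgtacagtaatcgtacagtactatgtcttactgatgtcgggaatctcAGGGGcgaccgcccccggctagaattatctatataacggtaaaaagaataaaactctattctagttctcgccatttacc
PAI3 had 3 AGGGG motifs, and PRC1 had 2 with 1 GATAAG. Over all 35 genes, 13 windows held AGGGG (37.1%), against 19.2% of the 6001 windows of protein-coding genes, and 12 held GATAAG (34.3%), against 12% of all. Of the 13 genes that passed the test in any comparison, 6 held AGGGG and 6 held GATAAG. The pair can share letters, which occurred in 0 of the 35 windows and 4 of all. The Gcn4 site TGACTC was in 4 of the 35 windows (ATG4, ATG8, ATG21 and ATG29; 11.4%, against 6.83% of all). The core of URS1, the site of the Ume6 repressor, GCCGCC, was in the ATG8 window, 2.86% of the 35 and 4.82% of all. A match of letters is a description and does not show that a factor binds.

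Batch culture at the higher density was the second control for unfixed particles. PEP4 was the 1 gene of 30 that passed the test there, against 3.51% of all genes called higher, 5.41% lower and 8.92% in either direction, with 838 and 881 CPM in unfixed particles and 217 and 280 CPM at Abs600 2 (log2 fold change 1.78, SE 0.45, adjusted p = 0.0232). This call was lost without any 1 of the 4 libraries of the comparison, over which the log2 fold change stayed positive. The median over the 30 genes was 0.62, against -0.04 over all genes. PRC1 had 1178 and 1513 CPM in unfixed particles and 1401 and 1189 CPM at Abs600 2, so these groups overlapped. PRB1, with 98.6 and 108 CPM in unfixed particles and 22.4 and 31.9 CPM at Abs600 2, did not overlap but missed the threshold. Here too the share of all genes without overlap was not counted.

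Between the batch cultures 0 of 30 genes passed the test, and 0.00% of all 5448 did by edgeR. At an unadjusted p under 0.05 there were 2 of the 30 genes and 540 of all genes, and DESeq2 called 1 of the 24 to which it gave an adjusted p, PRC1, and 103 of all genes. PRC1 had 1401 and 1189 CPM at Abs600 2, against 435 and 519 CPM at Abs600 0.5. The median log2 fold change was 0.57 for the 30 genes and 0.03 for all genes, and 25 of the 30 values were positive. PAI3 had 47.9 and 47.1 CPM at Abs600 2 and 11.7 and 26 CPM at Abs600 0.5, and PEP4 217 and 280 CPM against 126 and 145 CPM.

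Fixed unsorted particles, set against batch culture at Abs600 0.5, also gave 0 of 30 genes and 0.00% of all genes past the threshold by edgeR, with 3 of the 30 and 432 of all genes at an unadjusted p under 0.05. DESeq2 called ATG5 and PRB1 of the 26 to which it gave an adjusted p, and 33 of all genes. ATG5, part of the complex that attaches Atg8 to its lipid, had 76.6, 50.4 and 101 CPM in fixed particles, against 19.7 and 21.8 CPM in batch culture. PRB1 had 114, 23.5 and 110 CPM in fixed particles, against 17.4 and 15.5 CPM, and passed the edgeR test without fixed replicate 2. PEP4 had 260, 92.1 and 292 CPM in fixed particles, which surrounds the 126 and 145 CPM of batch culture. The median over the 30 genes was 0.18, against 0.03 over all genes.

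Fixation was read from fixed against unfixed unsorted particles. In fixed particles 10 of the 30 genes were lower and 1 was higher, against 9.58% of all genes lower, 10.5% higher and 20.1% in either direction. The lower genes were 3 of the 5 tested genes of breakdown in the vacuole (PEP4, PRC1 and PAI3), 4 of the 6 tested selective receptors and related genes (ATG26, ATG33, ATG36 and ATG39), 2 of the 8 of membrane source and lipid transfer (ATG14 and ATG21) and 1 of the 5 of the Atg1 kinase complex (ATG31). The higher gene was ATG5, of the conjugation systems. The median log2 fold change was -1.28 for the 30 genes and 0.03 for all genes, and 6 of the 30 values were positive. The unfixed libraries are the same as in the comparison with batch culture, so the opposite direction of the shared genes is no second, independent result.

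Among the proteases, PEP4 had 260, 92.1 and 292 CPM in fixed particles, against 838 and 881 CPM in unfixed ones (log2 fold change -1.98, SE 0.39, adjusted p = 0.00242). PRC1 had 326, 242 and 430 CPM in fixed particles and 1178 and 1513 CPM in unfixed ones (-2.01, SE 0.32, adjusted p = 0.000521). These calls held without any single library and under each of the 16 alternatives run. PAI3 had 31.1, 5.21 and 20.1 CPM in fixed particles, against 216 and 143 CPM in unfixed ones (-3.18, SE 0.76, adjusted p = 0.00980), and its call was lost without unfixed replicate 1. PRB1 had 114, 23.5 and 110 CPM in fixed particles and 98.6 and 108 CPM in unfixed ones and did not pass. Among the fixed libraries, replicate 2 held the lowest value of each of these 4 genes.

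ATG39 and ATG36, receptors of organelle autophagy, had the largest log2 fold changes of the 30 genes. ATG39 (YLR312C, chromosome XII, 757637 to 758833, minus strand) had 0.197, 0 and 0.692 CPM in fixed particles, against 52.7 and 42 CPM in unfixed ones. This rests on 3 tags in fixed and 210 tags in unfixed particles, a ratio of 0.00695 after scaling each group's tags by its TMM library sizes (95% exact counting interval 0.00142 to 0.0206), and the fitted log2 fold change was -6.95 (SE 1.51, adjusted p = 0.00470). ATG36 (YJL185C, chromosome X, 82095 to 82976, minus strand) had 0.59, 1.74 and 0 CPM in fixed particles, against 16.8 and 21 CPM in unfixed ones (-4.84, SE 1.32, adjusted p = 0.0175). ATG33 (YLR356W, chromosome XII, 840321 to 840914, plus strand), a mitochondrial protein used in mitophagy, had 14.6, 6.08 and 10.7 CPM in fixed particles and 84.5 and 42 CPM in unfixed ones (-2.53, SE 0.61, adjusted p = 0.00862). ATG26 (YLR189C, chromosome XII, 530797 to 534393, minus strand) encodes a sterol glucosyltransferase that is needed for peroxisome degradation in the yeast Pichia pastoris. It had 16.3, 12.2 and 20.1 CPM in fixed particles and 42.2 and 75.5 CPM in unfixed ones (-1.83, SE 0.47, adjusted p = 0.0120). In all 4 genes every fixed library lay below every unfixed one. They were picked by the test on these same libraries, so this is no further support. The share of all genes so separated was not counted. ATG19 had 16.3, 10.4 and 21.8 CPM in fixed particles, against 67.7 and 55.8 CPM in unfixed ones, and missed the threshold, though DESeq2 called it.

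In the machinery, ATG14 (YBR128C, chromosome II, 493081 to 494115, minus strand), the subunit that directs the phosphatidylinositol 3-kinase to autophagy, had 6.3, 4.34 and 9.35 CPM in fixed particles, against 60.9 and 34.8 CPM in unfixed ones (-2.79, SE 0.86, adjusted p = 0.0323). ATG31 (YDR022C, chromosome IV, 488072 to 488662, minus strand), part of the scaffold with Atg17 and Atg29, had 20.9, 21.7 and 20.1 CPM in fixed particles and 60.4 and 110 CPM in unfixed ones (-2.02, SE 0.56, adjusted p = 0.0191). ATG21 (YPL100W, chromosome XVI, 361872 to 363362, plus strand), which binds phosphatidylinositol 3-phosphate, had 19.3, 28.7 and 31.5 CPM in fixed particles and 75.4 and 67 CPM in unfixed ones (-1.42, SE 0.43, adjusted p = 0.0308). ATG5 (YPL149W, chromosome XVI, 271310 to 272194, plus strand) went the other way, with 76.6, 50.4 and 101 CPM in fixed particles and 31.3 and 21.9 CPM in unfixed ones (1.53, SE 0.49, adjusted p = 0.0374). The groups did not overlap for these 4 genes, which the test had picked from the same libraries. As above, the share of all genes so separated was not counted. ATG8 had 18.7, 6.95 and 24.2 CPM in fixed particles, against 23.2 and 17.4 CPM in unfixed ones, and ATG1 5.71, 2.61 and 29.8 CPM against 15.9 and 21.4 CPM; in both the groups overlapped.

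With a library left out, 6 of the 30 genes passed without fixed replicate 1, fixed replicate 3, unfixed replicate 1 or unfixed replicate 2, and 9 without fixed replicate 2. The call of ATG21 was lost without any of the 5 libraries, that of ATG14 without any but unfixed replicate 2, and that of ATG5 without any but fixed replicate 2. Those of ATG31 and ATG36 were lost without fixed replicate 1, fixed replicate 3 or unfixed replicate 2, that of ATG26 without unfixed replicate 2 and that of ATG33 without unfixed replicate 1, while ATG39 kept its call without each. With all 14 libraries in the fit, 3 of the 11 were called, ATG39, PEP4 and PRC1, and the calls of ATG5, ATG14, ATG21, ATG26, ATG31, ATG33, ATG36 and PAI3 were lost. The transcript strand share of 92.3% to 94.9% in fixed and 90.5% and 91.3% in unfixed libraries moved with this comparison, and its part in the result was not tested.

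**Figure D3:**
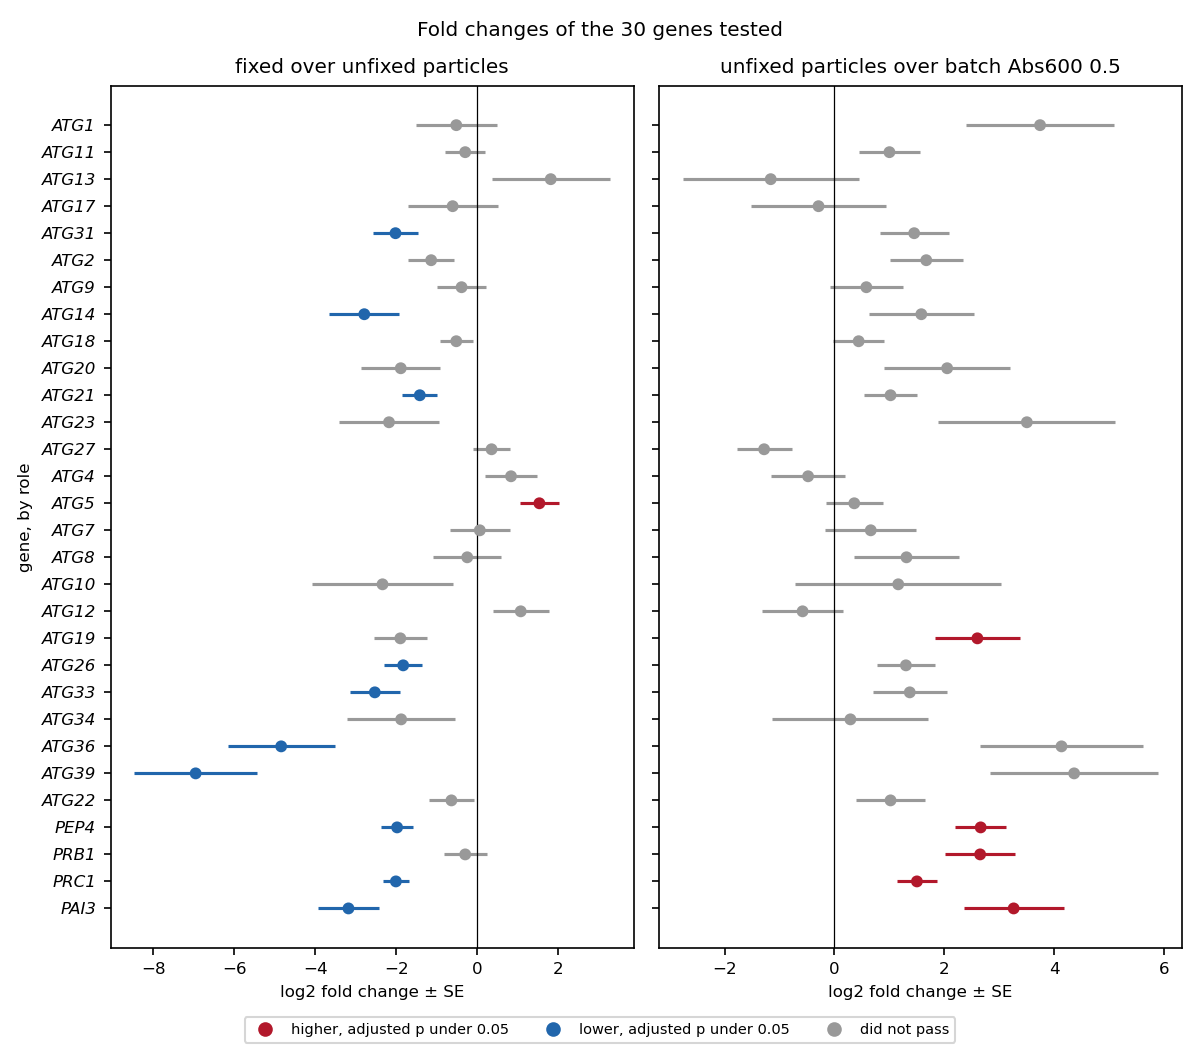
Log2 fold change (points) and its standard error (bars) of the 30 genes tested, by role from the Atg1 complex at the top to the vacuolar proteases at the bottom, for fixed over unfixed particles (left) and unfixed particles over batch culture at Abs600 0.5 (right). Both panels use the same unfixed libraries; 10 genes on the left are lower and 1 higher, and 5 on the right are higher.

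Between sorted big colonies and fixed unsorted particles 0 of 30 genes and 0.00% of all genes passed by edgeR, with 1 of the 30 and 190 of all genes at an unadjusted p under 0.05, and 0 by DESeq2. The medians were -0.02 for the 30 genes and -0.00 for all. PEP4 had 145, 131 and 118 CPM in big colonies and 260, 92.1 and 292 CPM in unsorted particles, and PRC1 326, 329 and 391 CPM against 326, 242 and 430 CPM. ATG39 had 12.5, 2.72 and 0.342 CPM in big colonies, against 0.197, 0 and 0.692 CPM in unsorted particles.

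Colony size was the question the sorting addressed. In the fit of 14 libraries, 0 of the 32 genes tested differed between small and big colonies, against 0.561% of 5527 genes called higher, 0.706% lower and 1.27% in either direction by edgeR. At an unadjusted p under 0.05 there were 6 of the 32 and 1116 of all genes, and DESeq2 called 2, ATG13 and ATG33, and 609 of all genes. The median log2 fold change was 0.81 for the 32 genes and 0.17 for all. The libraries of small colonies disagreed gene by gene, so an average over them describes neither. They also differed technically. Small replicate 2 held 1873907 tags, with 92.6% on the transcript strand near isolated genes, and small replicate 4 held 7871184, with 87.6%. The count column of small replicate 4 also carries another barcode scheme than those of the other libraries. The part of these differences in the disagreement was not tested. PRB1 had 0 and 204 CPM in small colonies, against 44.4, 27.5 and 58.8 CPM in big ones, and ATG8 0 and 85.3 CPM against 11.8, 1.09 and 18.1 CPM. In PAI3 the order turned round, with 210 CPM in small replicate 2 and 0.794 CPM in small replicate 4, against 77.3, 8.43 and 20.8 CPM in big colonies, and likewise in ATG14, with 203 and 1.89 CPM against 29.1, 7.34 and 8.2 CPM, and in ATG31, with 170 and 1.59 CPM against 47.5, 12.5 and 13.3 CPM.

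Over all 35 genes, small replicate 2 lay above the range of the big colonies in 9 genes, below it in 16 and within it in 10. Small replicate 4 lay above it in 14, below it in 7 and within it in 14. Replicate 2 was below and replicate 4 above in 9 genes, and the reverse held in 4. Both lay above in 1 gene, ATG26, with 38.7 and 44.6 CPM in small colonies against 28.4, 19.3 and 16.4 CPM in big ones. Both lay below in 2 genes, ATG18, with 0 and 19.7 CPM against 74.5, 43.5 and 32.5 CPM, and ATG33, with 0 and 3.58 CPM against 44.7, 10.3 and 16.7 CPM. Without small replicate 2 the count of genes past the threshold was 9 of 35 (1670 of all 5681 genes), and without small replicate 4 it was 14 of 34 (1983 of all 5598). With a block for the replicate number, which small replicate 4 shares with no other library, it was 15 of 32 (1607 of all 5527).

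**Figure D4:**
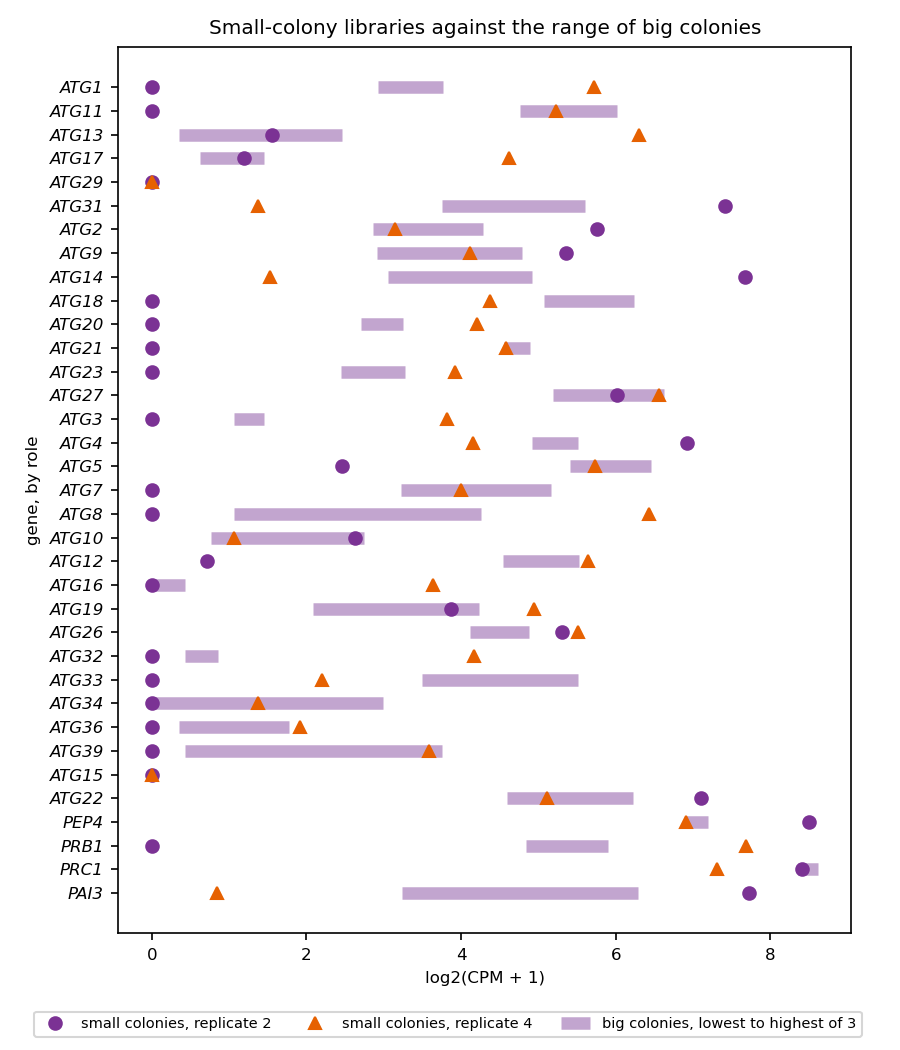
Level of each of the 35 genes in small replicate 2 (circles) and small replicate 4 (triangles) with the range over the 3 big-colony libraries (bars), as log2(CPM + 1). The small libraries lie on opposite sides of the bar for 13 genes, of which 9 are low in replicate 2 and high in replicate 4.

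The place of the 3′ ends shows what kind of transcript was counted. PEP4 ended almost always at 1 site: 88.5% of its tags lay 92 nt past the ORF, where 17 of the next 20 bases in the genome are A, so that priming on the genomic A run and a true poly(A) site cannot be told apart there. PRC1 had 73.8% of its tags 108 nt past the ORF, with 2 A in the next 20 bases, and PAI3 88.3% at 162 nt, with 10. PRB1 ends were spread over 87 positions, with 37.2% at 228 nt. For these 4 genes 0.42% to 6.62% of tags lay inside the ORF. Over all gene tags of a library that share was 6.79% to 26.5%, with 12.5%, 26.5% and 22.7% in fixed unsorted particles, 13.3% and 10.8% in unfixed ones and 10.8% and 18% in batch culture at Abs600 0.5.

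Several ATG genes were read largely from inside their ORF. ATG39 had 57.7% of its tags there, and in unfixed particles 87.1% of 210 tags, with the leading site at -1085 nt from the end of the ORF. ATG1 had 70.1% there, and in unfixed particles 100%. ATG20 had 45.5%. ATG19 had 0% of 158 tags inside the ORF in fixed particles, against 23% of 274 tags in unfixed ones, and PRB1 0.541% of 925 tags against 13.7% of 459. For ATG19 most of these came from 1 library, with 56 of 149 tags in unfixed replicate 1 and 7 of 125 in unfixed replicate 2. What these tags inside the ORF stand for was not tested. When tags past the ORF alone were counted, a setting chosen after seeing the data, ATG39 lost its call between fixed and unfixed particles (log2 fold change -4.54, adjusted p = 0.151), as did ATG31 (-1.87, adjusted p = 0.136), and ATG19 lost its call between unfixed particles and batch culture (2.41, adjusted p = 0.0569). PEP4, PRC1 and PAI3 kept theirs in both comparisons, as did PRB1 between unfixed particles and batch culture.

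**Figure D5:**
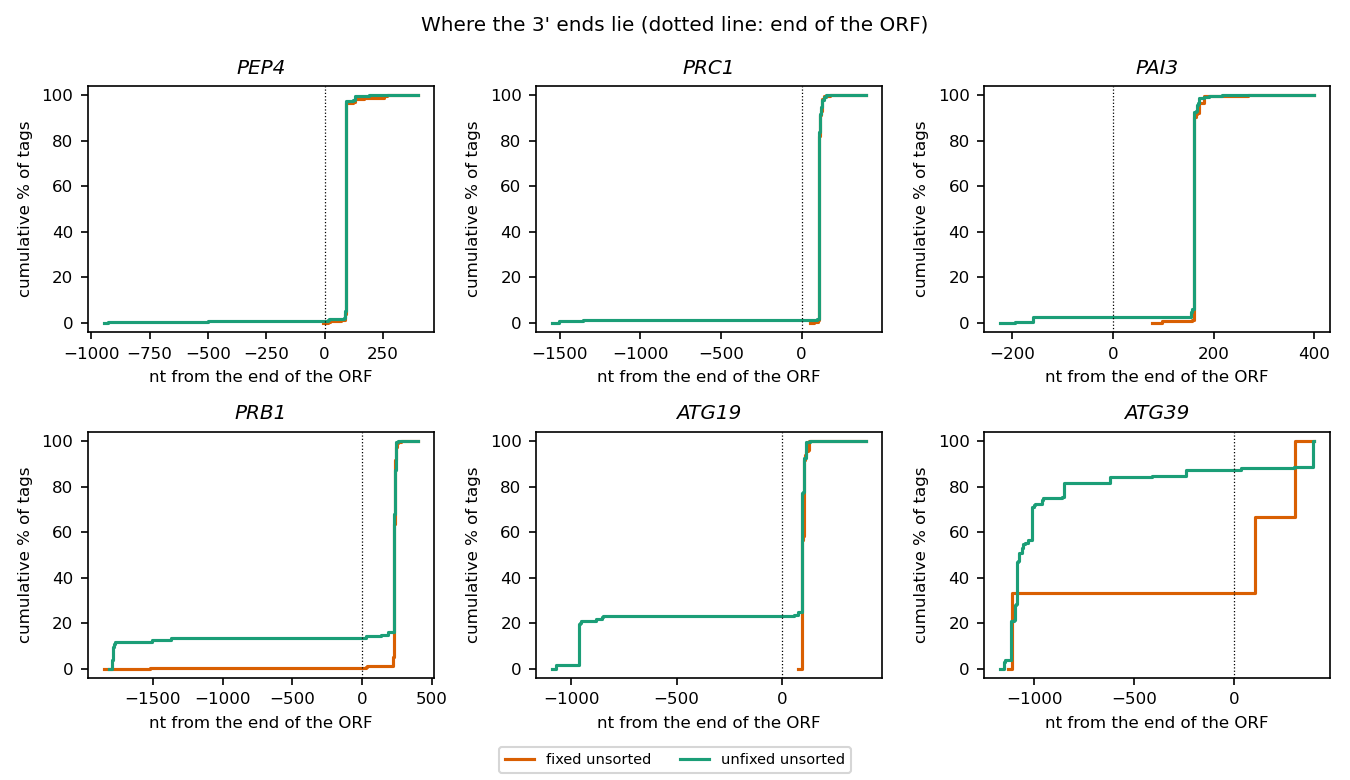
Cumulative share of tags by distance from the end of the ORF (nt, negative inside the ORF) for 6 genes in fixed and unfixed unsorted particles, all replicates of a group summed. PEP4, PRC1 and PAI3 step up at 1 site past the ORF, whereas 87.1% of the 210 ATG39 tags of unfixed particles lie inside it; the fixed ATG39 line stands for 3 tags.

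Other genes of the pathway, from lists chosen with earlier results of these data known, were read in the same fit. Of all 5448 genes tested there, 5.38% were higher in unfixed particles than in batch culture at Abs600 0.5. Between fixed and unfixed particles 9.58% were lower and 10.5% higher in fixed ones. Of 10 later-numbered or associated ATG genes tested, 4 were higher in unfixed particles than in batch culture at Abs600 0.5 (ATG41, ATG42, CUE5 and VAC8), and 4 were lower in fixed than in unfixed particles (ATG38, ATG41, ATG42 and CUE5). ATG42, a vacuolar carboxypeptidase related to carboxypeptidase Y, averaged 120 ± 20.5 CPM in unfixed particles and 14.8 ± 13 CPM in batch culture (SD, n = 2 each), log2 fold change 2.99 (SE 0.69, adjusted p = 0.0118). In fixed particles it averaged 7.01 ± 5.33 CPM (SD, n = 3), lower by -4.06 on the log2 scale (SE 0.63, adjusted p = 0.000411). ATG41, needed for Atg9 delivery, averaged 67.8 ± 40 CPM in unfixed particles and 3.63 ± 1.82 CPM in batch culture (SD, n = 2 each), log2 fold change 4.24 (SE 0.88, adjusted p = 0.00594). VAC8, a vacuolar membrane protein, averaged 29.6 ± 12.1 CPM in unfixed particles and 1.29 ± 1.16 CPM in batch culture (SD, n = 2 each), log2 fold change 4.57 (SE 1.21, adjusted p = 0.0233). The calls of ATG41 were lost in both comparisons, and that of VAC8 as well, when tags past the ORF alone were counted. Against batch culture the calls of ATG41, ATG42, CUE5 and VAC8 were all lost without batch replicate 2, those of ATG41, CUE5 and VAC8 without batch replicate 1, those of CUE5 and VAC8 without unfixed replicate 1, and those of ATG41 and CUE5 without unfixed replicate 2. Between fixed and unfixed particles ATG38 was lost without either unfixed library or fixed replicate 1, and CUE5 without unfixed replicate 2.

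Of 11 other vacuolar hydrolases, 2 were higher in unfixed particles than in batch culture, the aminopeptidase Y gene APE3 and the acid trehalase gene ATH1. In fixed particles 5 were lower than in unfixed ones (APE1, APE3, ATH1, DAP2 and RNY1). The shares of all genes were 5.38% and 9.58%. APE3 averaged 694 ± 125 CPM in unfixed particles and 219 ± 38.9 CPM in batch culture (SD, n = 2 each), log2 fold change 1.66 (SE 0.34, adjusted p = 0.00543). In fixed particles it averaged 183 ± 15 CPM (SD, n = 3), and that call held under all 16 alternatives run (log2 fold change -1.91, SE 0.30, adjusted p = 0.000474). APE1, the aminopeptidase I that Atg19 carries, averaged 4.81 ± 4.88 CPM in fixed particles (SD, n = 3), against 58.7 ± 32.5 CPM in unfixed ones (SD, n = 2), log2 fold change -3.80 (SE 0.82, adjusted p = 0.00430). Of 2 further inhibitors of vacuolar proteases, TFS1, the inhibitor of carboxypeptidase Y, averaged 363 ± 25 CPM in unfixed particles and 9.38 ± 0.648 CPM in batch culture (SD, n = 2 each). Its log2 fold change was 5.27 (SE 0.64, adjusted p = 0.000382), and in fixed particles it averaged 15.4 ± 8.65 CPM (SD, n = 3), lower by -4.50 (SE 0.51, adjusted p = 6.02e-05). Both TFS1 calls held under each alternative run. The call of APE3 against batch culture was lost without batch replicate 2 and that of ATH1 without any of the 4 libraries. Between fixed and unfixed particles the calls of DAP2 and RNY1 were lost without any of the 5 libraries and that of ATH1 without any but fixed replicate 3. When tags past the ORF alone were counted, ATH1 lost its call in both comparisons and RNY1 lost its own.

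Few genes of membranes and acidification passed, against 12.4% of all genes for unfixed particles over batch culture and 20.1% for fixed over unfixed particles. Of 19 genes of the vacuolar proton pump (V-ATPase), 0 passed in either comparison by edgeR, with medians of 0.07 for unfixed particles over batch culture and -0.22 for fixed over unfixed particles. At an unadjusted p under 0.05 there were 0 in both. Of 20 genes of vacuole fusion and sorting, 0 passed for unfixed particles over batch culture, with 3 at an unadjusted p under 0.05. In fixed against unfixed particles VPS39, of the tethering complex at the vacuole, was lower (log2 fold change -1.60, SE 0.48, adjusted p = 0.0276), and VAM3, a fusion protein, higher (1.33, SE 0.45, adjusted p = 0.0468). Of 4 genes of the phosphatidylinositol 3-kinase complexes, 0 passed for unfixed particles over batch culture, with 0 at an unadjusted p under 0.05, and VPS30 was lower in fixed than in unfixed particles (-3.03, SE 0.99, adjusted p = 0.0428). The call of VPS39 was lost without unfixed replicate 1 or fixed replicate 1 or 2, that of VAM3 without any library but unfixed replicate 1, and that of VPS30 without any but unfixed replicate 2. Those of VAM3 and VPS30 were also lost when tags past the ORF alone were counted.

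Of 27 regulators of nutrient signalling tested, 3 were lower and 1 higher in fixed than in unfixed particles. The shares of all genes were 9.58% and 10.5%. In unfixed particles 1 of the 27 was higher than in batch culture at Abs600 0.5 and 0 were lower, against 5.38% and 7.05% of all genes. Of the genes lower in fixed particles, 1 is not reported here. TPK2 is a catalytic subunit of protein kinase A, which holds autophagy down in rich medium. It averaged 44.5 ± 15.8 CPM in fixed particles (SD, n = 3), against 176 ± 86.2 CPM in unfixed ones (SD, n = 2). It was lower by a log2 fold change of -1.96 (SE 0.46, adjusted p = 0.00710). GAT1, a GATA factor of nitrogen control, was also lower in fixed than in unfixed particles (log2 fold change -2.20, SE 0.68, adjusted p = 0.0328), and TPK3, another subunit of that kinase, was higher (1.25, SE 0.39, adjusted p = 0.0325). TPK2 and TPK3 thus changed in different directions, which no alternative turned round. The call of TPK3 was lost without any library but fixed replicate 2, that of TPK2 without unfixed replicate 1, and that of GAT1 without either unfixed library or fixed replicate 3 and when tags past the ORF alone were counted. With all 14 libraries in the fit, the calls that held among the genes named from these lists were those of TFS1 in both comparisons and of APE3, ATG41, ATG42 and TPK2 between fixed and unfixed particles.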

How the data were processed

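The authors deposited unnormalized counts of transcript end tags for 542908 positions on either strand, in 1 column for each of 16 libraries. Per the submitters' processing notes, CASAVA 1.8.2 and GSNAP were used, with the builds R64 and sacCer3. Filters, treatment of duplicates and use of molecular identifiers are not given in the sources used here, so intervals cover counting error only. The authors' total column equalled the sum over libraries at every position and was not used.

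Transcripts lay on the strand opposite to the table's. A tag was counted for a gene in its ORF, or up to 400 nt past it if no other gene on that strand came first (RefSeq annotation of R64). The gene counts were tested with edgeR 4.0.16 (quasi-likelihood, robust, TMM, filterByExpr), adjusted by Benjamini-Hochberg over all genes tested, with a threshold of 0.05. One fit held 12 libraries in 5 groups without small colonies (5448 genes, 7 residual degrees of freedom), and small against big colonies used 14 libraries in 6 groups (5527 genes, 8 residual degrees of freedom). Log2 fold changes come from these fits, so that they can differ from ratios of the CPM shown. Standard errors were derived from the log2 fold change and its F statistic. Alternatives were DESeq2 1.42.0, limma 3.58.1 voom with and without quality weights, other size factors, windows of 200 and 100 nt, no filter on low counts, other sets of libraries, a replicate block and libraries left out. The procedure was tested on simulated data. The members, the lists, the motifs and the choice to leave small colonies out of the first fit were made with earlier results of these data known.

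The labels call the libraries of most groups biological replicates but do not say how cultures or days were shared, so p-values measure the spread between these samples. The deviations of same-numbered libraries from their group means correlated at -0.169 to 0.202 over 21 pairs in the 5 groups without small colonies, 2 of them over 0.1. The numbers were therefore not treated as pairs. In a group of 2 libraries the deviations mirror each other, so many pairs repeat a value. The check cannot exclude shared cultures or days. Genes given with every library's value are those past the threshold in any of the 7 comparisons and PEP4, PRB1, PRC1, PAI3, ATG1 and ATG8. Of the other lists, up to 4 genes each with the largest log2 fold changes past the threshold and a mean of at least 5 CPM are named, and CUE5 and DAP2 were added after their values were seen. Protein sequences were not used here, and 1 upstream sequence and 1 gene of the lists are not reported here. Software was R 4.3.3, Python 3.11.15, pandas 2.3.3, numpy 2.4.6, scipy 1.17.1 and matplotlib 3.10.9.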

Additional observations from a re-analysis of the deposited data

Results flagged for a closer look

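Tags on the opposite strand of the 35 ORFs that were counted for no annotated gene were used in no comparison. Per 1000000 gene tags they numbered 178 in small replicate 2, 91.8 in small replicate 4, 91.4 in big replicate 2, 59.1 in big replicate 3, 84.2, 45 and 86.3 in fixed unsorted particles, and 115 and 96.1 in unfixed particles. Each of these 9 libraries lay above the 4 batch cultures, which held 14.5 to 28.4, and big replicate 1 did not, with 25.2. In several libraries much of this came from 1 gene. The ATG9 ORF held 266 of the 309 such tags in small replicate 2 and 340 of 642 in small replicate 4. It held 267 of 373 in big replicate 2, 106 of 174 in big replicate 3, and 214 of 379, 37 of 64 and 61 of 245 in fixed unsorted particles. In unfixed particles it held 7 of 235 and 15 of 197. There the most lay in the ATG14 ORF in replicate 1, with 107 of 235, and in the PRC1 ORF in replicate 2, with 58 of 197. The difference from batch culture was not tested, with or without ATG9.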

How the results depend on the processing

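None of the calls recomputed under the alternatives changed direction. For unfixed particles over batch culture at Abs600 0.5, the 5 genes called became 8 with DESeq2, 9 with voom and quality weights, 3 with a window of 100 nt (ATG27, lower, among them), 8 from these 2 groups alone, 1 with all 14 libraries in the fit and 1 to 3 with a library left out. Over all genes the count there was 107 with all 14 libraries in the fit, against 677. Against batch culture at Abs600 2, the count of 1 became 4 with DESeq2, 2 with voom, 2 with a window of 100 nt, 3 from the 2 groups alone, 0 with all 14 libraries and 0 to 1 with a library left out. For fixed over unfixed particles, 11 became 5 with a window of 100 nt, 3 with all 14 libraries, 7 with the replicate block and 6 to 9 with a library left out. The count of 0 became 1 between batch cultures with DESeq2 and 1 with quality weights, 2 and 2 for fixed particles over batch culture at Abs600 0.5 (0 to 1 with a library left out), and 2 and 3 for small over big colonies, where it was 15 with the replicate block and 0 to 14 with a library left out. The replicate block moved no other count by over 1.5 times; the crossed pairing of the batch cultures, chosen after seeing the data, called 0 members and 7 genes in all. Where an arm was left with 1 library, it was assumed to vary like the other groups. The cause of these changes was not tested, beyond the fewer samples or tags that a setting holds. The low number of tags limits the precision of most ATG genes.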

Other observations

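Some of the 35 genes face a strongly transcribed neighbour. On the strand opposite to the PAI3 ORF lay 4767 tags, over the 14 libraries, that were counted for DDR48, against 2034 tags for PAI3 itself. ATG9 had 4011 such tags counted for NOP14 against 1028 of its own, ATG21 had 1006 for INA17 against 1448, ATG10 had 745 for FPS1 against 100, and ATG31 had 663 for FAL1 against 1600. ATG29, which overlaps SET6 on the other strand, had 410 tags counted for SET6 against 23 of its own. Strand was kept in counting, so these tags are not in the values given above.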
